A study of Mus musculus with 12 samples.

Results

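The effect of SF3a1 inhibition on resting macrophages was examined by comparing RAW264.7 cells that received SF3a1 siRNA with cells that received a non-targeting control siRNA, both without LPS. The comparison took 6 of the 12 libraries of the study, 3 from each siRNA, and was chosen by sample group alone. RAW264.7 is a mouse macrophage line of BALB/c origin. All cells were transfected by nucleofection, and the siRNA had acted for 24 h before LPS (20 ng/ml, 4 h) or no LPS was given. The other 6 libraries came from the same siRNAs with LPS and served here to estimate the spread and to give, for reference, each gene its LPS response and its SF3a1 siRNA effect with LPS. PolyA RNA was sequenced on an Ion Proton instrument. RAW264.7 is 1 established cell line, the source of the 3 samples in each group is not stated beyond triplicate treatment, and the p-values measure the spread between these samples, which may be technical. Each library was bulk RNA, so its values are averages over all cells of the sample, whatever siRNA each had taken up.

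Reads counted on genes numbered 40840082, 20659511 and 21313015 in the control siRNA libraries and 27789833, 17182329 and 12746019 in the SF3a1 siRNA libraries. The first replicate was the deepest of each group. The share of reads outside annotated genes was 18.2%, 19.6% and 17.8% with control siRNA and 27.2%, 21.6% and 20.8% with SF3a1 siRNA. Mitochondrial genes took 0.760%, 0.581% and 0.715% of the reads on genes with control siRNA and 1.53%, 1.21% and 0.908% with SF3a1 siRNA. In both measures all 3 SF3a1 siRNA libraries lay above all 3 controls, and the first SF3a1 siRNA library lay highest. The part of these shares in the results that follow was not tested. Leaving out that library lowered the number of called genes from 5069 to 4382, with 1761 higher and 2621 lower. Leaving out another library without LPS gave between 3881 and 4810 called genes, so a loss of this size was not particular to it.

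SF3a1 is a subunit of SF3a, which together with SF3b joins the U2 small nuclear ribonucleoprotein and helps it to recognize the branch point of an intron. Blocking this step leaves introns in transcripts and can skip exons. In cells under such stress the tumor suppressor p53 is often stabilized, and it raises genes that stop the cell cycle, repair DNA or promote cell death. LPS, a component of the outer membrane of Gram-negative bacteria, signals through the receptor TLR4 to NF-κB and MAP kinases, which raise cytokine genes within hours, and to IRF3 and interferon, which raise antiviral genes.

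The level of Sf3a1 mRNA (chr11:4160350.0-4182541.0 on the plus strand of mm10) checked the labels. It was 173, 216 and 185 CPM (counts scaled to 1000000 per library, with TMM factors) with control siRNA and 27.1, 27.5 and 32.1 CPM with SF3a1 siRNA. The groups did not overlap, and the mean with SF3a1 siRNA was 15.1% of the control mean. The log2 fold change was -2.73 (SE 0.20, adjusted p = 1.14e-05, edgeR quasi-likelihood test with Benjamini-Hochberg adjustment over 14983 genes). An exact two-sided permutation test of 3 libraries against 3 gave p = 0.1, the smallest that this design allows. Genes are called here at an adjusted p of 0.1 or less in that edgeR test, the false discovery rate used in the study.

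The mRNAs of the SF3a1 partners showed no common direction. Sf3a3, the SF3a subunit next to it, was at 130.5, 163 and 153 CPM with control siRNA and 107, 123 and 134 CPM with SF3a1 siRNA, and Sf3a2 was at 161, 136.9 and 103 and 142, 121 and 104 CPM; neither was called (adjusted p = 0.172 and 0.726, edgeR). With the replicate number as a block, Sf3a3 was called lower (log2 fold change -0.29, adjusted p = 0.0428). Sf3b1, the largest SF3b subunit and the one that contacts the branch point, rose from 299, 348 and 332 CPM to 548, 621 and 589 CPM (log2 fold change 0.84, SE 0.13, adjusted p = 0.000602). Sf3b4, which binds RNA near the branch point, rose from 109, 94.2 and 91.8 to 153, 146 and 155 CPM (log2 fold change 0.62, adjusted p = 0.00672). Sf3b2 fell from 538, 474 and 462 to 391, 316 and 349 CPM (log2 fold change -0.48, adjusted p = 0.0311), a call that was lost without control siRNA replicate 1, 2 or 3 or SF3a1 siRNA replicate 2 (adjusted p = 0.199, 0.113, 0.102 and 0.136). Sf3b3, Sf3b5, Sf3b6 and Phf5a did not pass the test, with log2 fold changes of 0.35, -0.26, 0.05 and -0.28; Sf3b3 was called higher with the block (adjusted p = 0.0471). Of 25 genes of the SF3 complexes and of branch point recognition, all tested, 3 were called higher and 3 lower with a median log2 fold change of -0.13. These shares, 12% each, were not above those of all genes tested (13.7% higher and 20.1% lower). The remaining gene called higher was Ddx46, a helicase of the U2 particle (0.68, adjusted p = 0.0104), and the remaining one called lower was Ddx39b, also known as UAP56, a helicase of spliceosome assembly and mRNA export (-1.16, adjusted p = 0.000438).

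**Figure D1:**
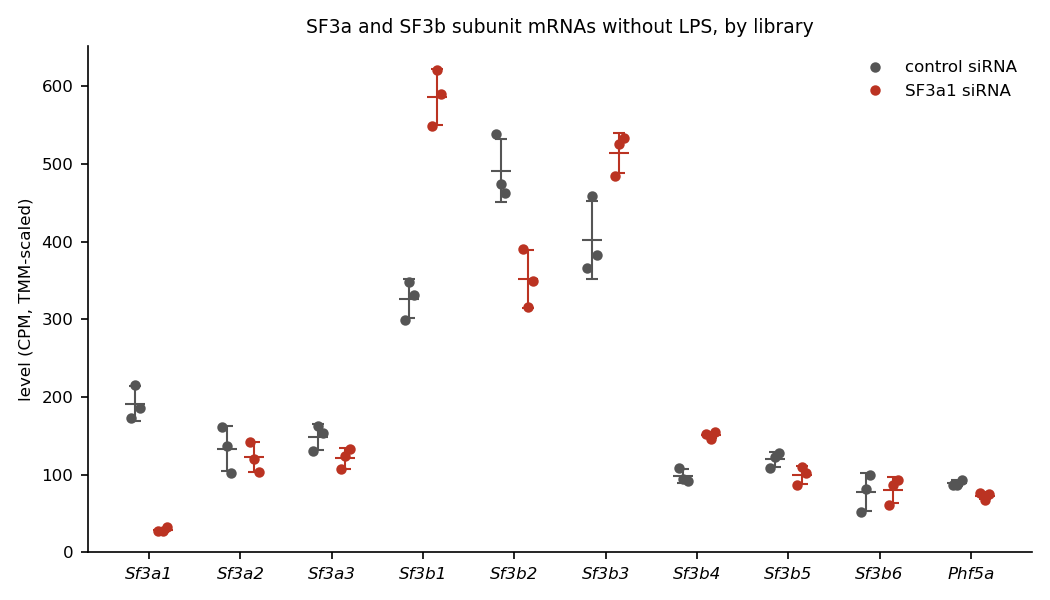
Levels of the SF3a and SF3b subunit mRNAs without LPS, in CPM on a linear axis. Each point is a library, and the bars give the mean and SD of 3 libraries; Sf3a1 fell to 15.1% of its control mean while Sf3b1 and Sf3b4 rose.

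The low-count filter kept 14983 of the 38215 genes in the table, and 5069 of these were called (33.8% of those tested). Of these, 2058 were higher (13.7% of those tested) and 3011 lower (20.1%) with SF3a1 siRNA. With the replicate number as a block 7053 genes were called, 3105 higher (20.7%) and 3948 lower (26.3%), and blocked counts of gene lists below stand beside these shares. The median log2 fold change over all genes tested was -0.02. A change of at least 2-fold was reached by 780 of the genes called higher and 1427 of those called lower. For reference, LPS with control siRNA called 2061 genes higher (13.8%) and 2748 lower (18.3%). That comparison shares its control libraries with the one described here, so the LPS values below stand beside those of SF3a1 siRNA only as a description. The 3 libraries of each siRNA did not overlap in 6831 genes (45.6% of those tested).

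The largest rises among called genes of at least 10 CPM on average whose groups did not overlap were led by Trp53inp1, a p53 target that promotes cell death and autophagy. It was at 1.38, 1.74 and 2.38 CPM with control siRNA and at 36.1, 54.5 and 48.5 CPM with SF3a1 siRNA (25.3-fold, log2 fold change 4.67, SE 0.45, adjusted p = 3.84e-05, edgeR). The next were Inka2 (23.9-fold), the adenylate kinase gene Ak1 (23.9-fold), the ephrin receptor gene Epha2 (22.1-fold), the sodium/proton exchanger gene Slc9b2 (22.4-fold) and Phlda3 (21.6-fold), a p53 target that restrains AKT. Epha2 went from 3.85, 5.45 and 3.32 CPM to 66.9, 119.7 and 92.8 CPM, and Ak1 from 3.97, 3.08 and 3.45 CPM to 60.3, 81.8 and 108 CPM. The list closed with the costimulatory ligand Cd80 (15.3-fold), Ahnak2 (13.1-fold), Prrg4 (12.4-fold), the tyrosine kinase Src (12.7-fold), Fam198b (10.8-fold) and the oxidized LDL receptor Olr1 (10.4-fold). The replicates spread widely for some of them. Slc9b2 was at 94.6, 18.6 and 45.2 CPM and Src at 71.2, 13.4 and 25.6 CPM in the SF3a1 siRNA libraries, with the first library highest in both, whereas Olr1 was lowest in the first library (50.9, 238 and 243 CPM against 2.96, 29.5 and 18.7 CPM in the controls). Adjusted p-values of these 12 genes ranged up to 0.0247, that of Olr1.

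The largest falls by the same rule were led by Tk1, thymidine kinase, which makes thymidine nucleotides in S phase. Tk1 was at 125, 146 and 156 CPM with control siRNA and 16.6, 12.3 and 13.2 CPM with SF3a1 siRNA, 9.86% of the control mean (log2 fold change -3.34, SE 0.29, adjusted p = 1.87e-05). Of the 12, Sf3a1 itself was one, and 2 had no tie to cell division. These were Aldh1l2, a mitochondrial folate enzyme, which fell to 10.4% of its control mean (24.9, 22.7 and 21.6 CPM against 3.14, 2.40 and 1.64 CPM), and Pts, an enzyme of tetrahydrobiopterin synthesis, which fell to 12.2% (16.1, 21.2 and 30.1 CPM against 2.08, 3.40 and 2.75 CPM). Ankle1 (10.8%), Cdc45 (13.3%), Tcf19 (14.4%), Fancd2 (14.9%), Kif15 (15.4%), Neil3 (15.6%), Wdhd1 (15.8%) and Birc5 (15.9%) made up the rest, and several of these replicate or repair DNA or move chromosomes.

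**Figure D2:**
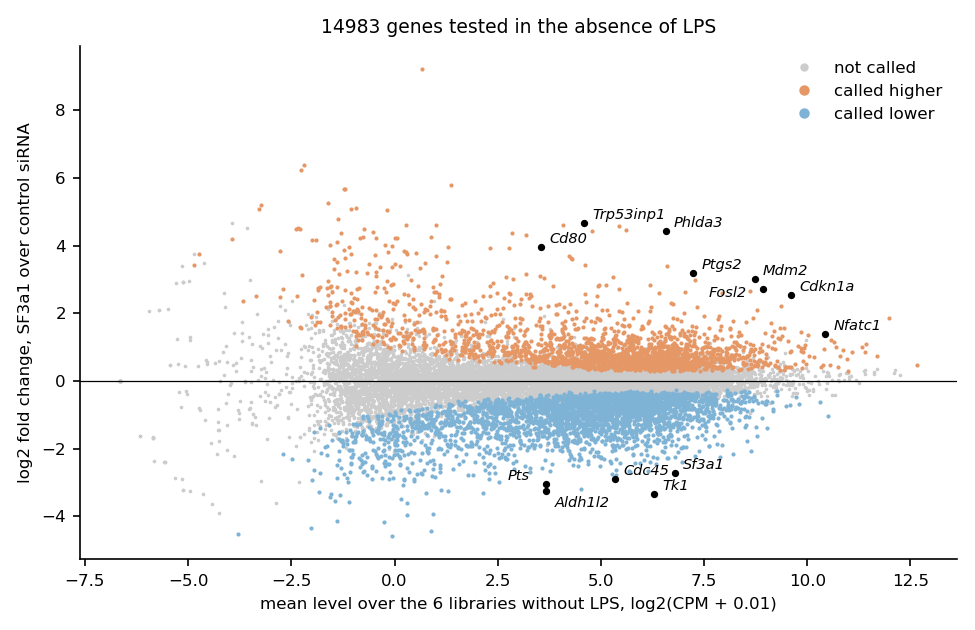
Log2 fold change between SF3a1 and control siRNA without LPS (vertical axis) against the mean level over the 6 libraries on a log2 axis, for the 14983 genes tested. Orange and blue points are the 2058 genes called higher and the 3011 called lower; black points are named genes, among them the p53 targets Trp53inp1 and Phlda3 above 4 and the S phase gene Tk1 below -3.

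More than 1 in 2 of the tested p53 targets were higher. Of 38 tested members of a list of 39, 21 were called higher (13.7% of all genes tested were) and 2 lower, with a median log2 fold change of 1.04. Cdkn1a, which encodes the cell cycle inhibitor p21, rose from 226, 247 and 209 CPM to 1389, 1377 and 1222 CPM (5.85-fold, log2 fold change 2.55, SE 0.14, adjusted p = 4.03e-06). Mdm2, the ubiquitin ligase that turns p53 over, rose from 78.7, 106 and 95.9 CPM to 614, 810.0 and 827 CPM (8.01-fold, adjusted p = 4.1e-06). In both genes the highest control library lay far below the lowest SF3a1 siRNA library. Phlda3 went from 7.04, 9.20 and 9.03 CPM to 165, 204 and 175 CPM. Zmat3, an RNA-binding p53 target, went from 44.3, 36.2 and 30.9 CPM to 239, 235 and 208 CPM, and Sesn2, which restrains mTORC1, from 19.4, 19.4 and 15.4 CPM to 139, 136.6 and 109 CPM. Bbc3, which encodes the cell death inducer PUMA, rose from 16.02, 12.3 and 11.8 CPM to 65.99, 58.3 and 48.95 CPM (log2 fold change 2.11, adjusted p = 1.48e-05). The 2 members called lower were Ckap2 (-2.11), a spindle protein, and Ddb2 (-1.26), a DNA damage sensor; both are named because they were the only ones.

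The mRNA of p53 itself was not called. Trp53 was at 287, 256 and 244 CPM with control siRNA and 285, 257 and 269.5 CPM with SF3a1 siRNA (log2 fold change 0.04, SE 0.12, adjusted p = 0.837). A separate list of p53 regulators left out Mdm2, which also regulates p53 and was counted above among the targets that rose. Of its 10 tested members, none rose and 5 fell (background for lower, 20.1%), with a median log2 fold change of -0.42. The fallers were the kinases Chek1 (-1.41), Atr (-1.36), Chek2 (-0.91) and Atm (-0.84), which signal DNA damage, and the deubiquitinase Usp7 (-0.96). The Atm call was lost without control siRNA replicate 2 or 3 or SF3a1 siRNA replicate 2 or 3 (adjusted p = 0.163, 0.136, 0.149 and 0.137). Under LPS alone the p53 targets divided, 11 higher and 14 lower of 38 (13.8% and 18.3% of all genes were), with a median of -0.27. Cdkn1a rose with LPS (1.63) and so did Mdm2 (1.17), whereas Phlda3 (-1.48) and Trp53inp1 (-2.26) fell.

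Promoters of the p53 list were searched for the p53 decamer motif on either strand. RefSeq windows (GRCm38.p6, from 250 bases before to 50 after a start) were matched by symbol for 30 of the 38 tested members, and 11 of them (36.7%) held at least 1 match, against 743 of 9214 matched genes tested (8.06%). Among members called higher 8 of 18 (44.4%) held one. Of the 2058 genes called higher, 1533 had a window and 7.89% of these held one. The upstream window of Cdkn1a is shown because the gene is a prominent member of the list and its RefSeq start has 2 matches upstream, given in capitals (chr17:29090729-29090978, plus strand, 250 bases before the start).
Cdkn1a: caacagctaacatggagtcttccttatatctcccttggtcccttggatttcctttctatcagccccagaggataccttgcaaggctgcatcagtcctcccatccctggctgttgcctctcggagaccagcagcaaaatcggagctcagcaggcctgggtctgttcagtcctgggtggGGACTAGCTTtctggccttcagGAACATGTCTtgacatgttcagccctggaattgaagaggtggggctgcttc
A match of letters is a description and not evidence of binding.

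Genes of cell division fell almost without exception. Of 60 genes of DNA replication and S phase, 59 were called lower and none higher (20.1% of all genes tested were lower), with a median log2 fold change of -1.40. Of 76 genes of mitosis and chromosome segregation, 75 were called lower and none higher, with a median of -1.76. Cdc45, a part of the replicative helicase, fell from 68.7, 76.7 and 70.05 CPM to 14.04, 6.74 and 7.89 CPM (log2 fold change -2.90, SE 0.25, adjusted p = 2.07e-05). Lig1, the ligase of lagging strand synthesis, fell from 275, 248 and 248 CPM to 75.8, 43.7 and 45.5 CPM, and Mcm5, another part of the helicase, from 535, 556 and 476 CPM to 258, 182 and 168 CPM. Among mitotic genes, the kinase Aurkb fell from 138, 145 and 126 CPM to 33.4, 22.7 and 18.2 CPM (log2 fold change -2.45, adjusted p = 3.83e-05). Top2a, topoisomerase II, fell from 546, 732 and 648 CPM to 186, 138 and 135 CPM, and Mki67, the gene of the proliferation antigen Ki-67, from 526, 649 and 559.7 CPM to 217, 158 and 134 CPM. The groups did not overlap for any of these 6 genes. Within the SF3a1 siRNA group the first library was the highest for Cdc45, Lig1, Mcm5, Aurkb, Top2a and Mki67. Bulk RNA cannot tell fewer cycling cells from less of these RNAs per cell.

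LPS also lowered this group, with 56 of the 60 replication genes and 60 of the 76 mitotic genes called lower (18.3% of genes tested were), and the medians were -1.38 and -0.94. The size differed between individual genes. Mcm6 fell by 0.83 on the log2 scale with SF3a1 siRNA and had a log2 fold change of -1.69 with LPS, while Birc5, a mitotic inhibitor of apoptosis, had values of -2.65 and -0.87. These differences between the comparisons were not tested. The E2F element (TTTNNCGC, either strand) was present in 21 of the 48 replication genes with a RefSeq window (43.8%) and in 12 of 65 mitotic genes (18.5%), against 10.2% of all genes tested and 13.9% of genes called lower. The window of Mcm5 is shown because it holds 2 overlapping matches on opposite strands, given together in capitals (chr8:75109259-75109508, plus strand).
Mcm5: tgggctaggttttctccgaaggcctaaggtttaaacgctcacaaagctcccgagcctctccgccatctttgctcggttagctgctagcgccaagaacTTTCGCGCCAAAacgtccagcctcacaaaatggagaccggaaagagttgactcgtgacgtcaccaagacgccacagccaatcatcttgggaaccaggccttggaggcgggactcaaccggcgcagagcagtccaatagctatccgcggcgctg

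A part of the LPS program was raised in the absence of LPS. Among 56 tested NF-κB targets and feedback inhibitors, 25 were called higher with SF3a1 siRNA and 2 lower, with a median log2 fold change of 0.65 (13.7% of all genes tested were higher and 20.1% lower). LPS raised 53 of them (13.8% of all genes) with a median of 3.39. Some had few counts without LPS and passed the low-count filter through libraries with LPS, so that share is in part fixed by the filter. Ptgs2, which encodes the prostaglandin synthase COX-2, rose from 26.9, 35.8 and 26.7 CPM to 318, 216 and 275 CPM (9.07-fold, log2 fold change 3.18, SE 0.20, adjusted p = 4.55e-06). With LPS and control siRNA Ptgs2 was at 1159, 908 and 946 CPM, so every SF3a1 siRNA library without LPS lay between the controls and the LPS-treated cells. Cd80, which helps to activate T cells, went from 0.894, 1.34 and 2.04 CPM to 20.8, 26.3 and 18.4 CPM, a range that overlapped the 27.2, 19.6 and 21.9 CPM reached with LPS. Cd80 is also on the p53 list. The surface glycoprotein Cd44 rose from 289, 352 and 289 CPM to 931, 789 and 862 CPM (log2 fold change 1.47, LPS 1.87), and Ehd1, a protein of endosome recycling, from 202, 194 and 179 CPM to 499, 353 and 431 CPM (1.16, LPS 2.95). Nfkbia, the inhibitor of NF-κB that is its classic target, rose from 102, 89.05 and 81.4 CPM to 213, 175 and 182 CPM (log2 fold change 1.07, SE 0.19, adjusted p = 0.00122; LPS 2.70). The anti-apoptotic gene Bcl2l1 rose by 1.27 on the log2 scale. The 2 members that fell were Cd40 (-1.70, mean 1.83 CPM with control siRNA) and Birc2 (-0.83).

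The members with the steepest LPS rise had low counts at rest, where a change is hard to detect, so the absence of a call says little about them. Of the 8 NF-κB targets with the largest rise after LPS, Nos2, Lcn2, Saa3, Hdc, Slc7a2 and Marcks were not called with SF3a1 siRNA, and all were below 1 CPM in every one of the 6 libraries without LPS. Nos2, the inducible nitric oxide synthase, was at 0.138, 0.0447 and 0.128 CPM with control siRNA, at 0, 0.167 and 0.149 CPM with SF3a1 siRNA and at 333, 365 and 330.2 CPM with LPS. Of the other 2, Acod1, the enzyme that makes itaconate, rose from 14.8, 7.55 and 6.86 CPM to 38.1, 13.9 and 16.9 CPM (1.23, adjusted p = 0.0336) against 4244, 5202 and 5801 CPM with LPS, and its groups overlapped. The Acod1 call was lost without control siRNA replicate 2 or 3 or SF3a1 siRNA replicate 1 (adjusted p = 0.101, 0.102 and 0.203). Cd40, at 0.711, 2.90 and 1.87 CPM with control siRNA, was at 0.401, 0.725 and 0.521 CPM with SF3a1 siRNA, and its call was lost without control siRNA replicate 2 or SF3a1 siRNA replicate 1 and in limma-voom (adjusted p = 0.162, 0.13 and 0.237).

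Inflammatory cytokines and chemokines were also higher in part. Of 36 tested, 15 were called higher and 3 lower with SF3a1 siRNA (median log2 fold change 0.94), against 13.7% higher and 20.1% lower of all genes tested. All 36 rose with LPS (median 6.77), against 13.8% of all genes. Members with 0 or few counts without LPS passed the low-count filter only through libraries with LPS. The count of 36 is thus in part fixed by that filter and cannot be set against the share of all genes. The count of 15 rested in part on single libraries and on the test, with 9 without control siRNA replicate 2 and 8 in limma-voom. Ccl3, a chemokine for monocytes, rose from 61.99, 46.8 and 44.1 CPM to 259, 191 and 167 CPM (4.03-fold, log2 fold change 2.01, SE 0.26, adjusted p = 0.000191), and was at 1838, 2964 and 3196 CPM with LPS. Ccl2, the main chemokine for CCR2-bearing monocytes, rose from 9.17, 6.75 and 6.90 CPM to 91.8, 34.8 and 36.01 CPM, with the first SF3a1 siRNA library at more than the sum of the other 2. Osm, a cytokine of the IL-6 family, rose from 3.92, 3.13 and 3.49 CPM to 13.7, 11.1 and 13.9 CPM, and its relative Lif from 0.390, 0.0894 and 0.341 CPM to 6.16, 3.29 and 1.79 CPM (3.70, adjusted p = 0.00112). Ccl7 was at 0.138, 0.134 and 0 CPM with control siRNA and at 3.14, 0.780 and 0.893 CPM with SF3a1 siRNA. Ccl9, another monocyte chemokine, rose from 409.9, 307 and 412 CPM to 807, 520.1 and 635 CPM. For Tnf, chosen after its values were seen as a main cytokine of the LPS response, the levels were 40.99, 35.5 and 29.8 CPM and 98.5, 63.7 and 76.4 CPM (1.17, adjusted p = 0.0561), against 671, 1873 and 1804 CPM with LPS.

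The cytokines with the steepest LPS response were low at rest, where a change is hard to detect. Il6 and Ccl17 had 0 counts in all 6 libraries without LPS, which allows a mean of up to 0.0362 CPM with control siRNA and 0.0520 CPM with SF3a1 siRNA (3 counts over each group, counting error only). Il6 was at 24.6, 10.97 and 27.4 CPM with LPS. Il1a and Csf3 were not called and lay below 0.2 CPM in all 6 libraries. Il1b was called at adjusted p = 0.0913, yet its level was 0.160, 0.0894 and 0.256 CPM with control siRNA and 0.911, 0.167 and 0.372 CPM with SF3a1 siRNA, which overlap, against 2389, 2659 and 4202 CPM with LPS. Ccl5 was called at adjusted p = 0.0975 with 0.527, 0.804 and 0.724 and 0.583, 1.67 and 2.16 CPM, against 1019, 976 and 1703 CPM with LPS. Cxcl2 went from 0.642, 0.402 and 0.681 CPM to 7.77, 0.725 and 1.86 CPM and Ccl22 from 0.367, 0.134 and 0.341 CPM to 0.547, 0.557 and 1.34 CPM. Calls were lost without 1 library for Cxcl2 (SF3a1 siRNA replicate 1, adjusted p = 0.168), Ccl22 (control siRNA replicate 2 or 3 or SF3a1 siRNA replicate 2 or 3, up to 0.321), Ccl5 (each but SF3a1 siRNA replicate 1, up to 0.337) and Il1b (each but control siRNA replicate 3 and SF3a1 siRNA replicate 2, up to 0.646). All 4 also lost their call in limma-voom, with adjusted p between 0.129 and 0.401. The 3 members called lower were Il18 (-0.90), Tnfsf9 (-0.82) and Cxcl16 (-0.69).

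The NF-κB letters GGNNTTTCC (either strand) were found in 14 of 44 NF-κB targets with a RefSeq window (31.8%) and in 9 of 23 cytokine genes (39.1%). Among the members called higher with SF3a1 siRNA they were in 5 of 22 NF-κB targets (22.7%) and 3 of 9 cytokine genes (33.3%), against 7.36% of all genes tested and 7.70% of genes called higher. The window of Nfkbia is shown because its 2 matches, in capitals, lie upstream of a classic NF-κB target (chr12:55492648-55492897, minus strand).
Nfkbia: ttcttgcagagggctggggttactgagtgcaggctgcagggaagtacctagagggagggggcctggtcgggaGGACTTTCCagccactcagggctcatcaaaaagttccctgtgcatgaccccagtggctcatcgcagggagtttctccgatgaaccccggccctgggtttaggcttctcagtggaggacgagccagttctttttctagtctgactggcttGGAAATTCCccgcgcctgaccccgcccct

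A part of the immediate early genes, which respond to growth factors and stress within an hour, was higher as well. Of 41 tested, 19 were called higher and 2 lower with a median log2 fold change of 0.76 (13.7% of all genes tested were higher and 20.1% lower). LPS raised 22 (13.8% of all genes) with a median of 0.86. Fos rose from 122, 94.9 and 82.2 CPM to 383, 288 and 398 CPM (log2 fold change 1.84, SE 0.18, adjusted p = 4.29e-05), Fosl1 from 8.30, 10.5 and 7.07 CPM to 66.5, 58.5 and 58.8 CPM, and Fosl2 from 131, 108 and 144 CPM to 914, 668 and 949 CPM. All 3 are partners in the AP-1 transcription factor. LPS values were 0.86, 3.02 and -0.38, the last not called, so Fosl2 rose with SF3a1 siRNA and did not pass the test with LPS. Myc, a transcription factor of growth, rose from 10.7, 14.1 and 9.50 CPM to 82.4, 56.3 and 86.1 CPM (2.71, LPS 3.97). Among genes of phosphatases that act on MAP kinases, Dusp4 rose by 1.83, Dusp5 by 2.18 and Dusp2 by 0.68 on the log2 scale. Zfp36, which destabilizes cytokine mRNAs, was not called (0.73, adjusted p = 0.294), but was called higher with the replicate block (adjusted p = 0.000755). The fallers were Atf3 (-1.35) and Klf4 (-1.25).

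Interferon-stimulated genes did not rise as a group. Of 65 tested, 4 were called higher and 14 lower (median log2 fold change -0.43). The share called lower, 21.5%, was near the 20.1% of all genes tested, and the share called higher, 6.15%, was below 13.7%. LPS raised all 65 (median 4.86), against 13.8% of all genes. Members with few counts at rest may have passed the low-count filter through libraries with LPS, so these shares are not strictly comparable. The count of 14 depended on single libraries, with 4 without control siRNA replicate 2 or 3, 7 without SF3a1 siRNA replicate 1 or 3, and 8 in limma-voom. Rtp4 fell from 8.34, 23.8 and 18.8 CPM to 4.05, 5.74 and 5.73 CPM (-1.72, adjusted p = 0.00179), and Stat2, a transcription factor of interferon signaling, from 30.2, 26.4 and 25.8 CPM to 16.6, 15.1 and 15.7 CPM (-0.80, adjusted p = 0.00209). Ifi203 fell from 9.51, 8.13 and 7.62 CPM to 5.10, 4.12 and 2.46 CPM. The 4 that rose were Slfn5 (1.57), Oas2 (1.20), Ifitm3 (1.03) and Trim25 (0.93). Oas2, an activator of RNase L, went from 28.7, 38.4 and 39.01 CPM to 61.3, 95.3 and 87.2 CPM. None of the 8 members with the largest LPS rise was called. These had low counts at rest, which makes a change harder to detect, though some genes at such levels, such as Cd80 and Lif, were called. The reason for the missing calls was not tested. Ifit1, an RNA-binding antiviral protein, was at 0.688, 4.07 and 1.70 CPM with control siRNA, 0.875, 2.56 and 1.49 CPM with SF3a1 siRNA and 752, 1551 and 1708 CPM with LPS, and Rsad2 was at 0.596, 3.49 and 1.28, 0.656, 1.45 and 1.41 and 845, 1135 and 1187 CPM. The interferon-stimulated response element core GAAANNGAA (either strand) was in 30 of 51 members with a window (58.8%), against 8.99% of all genes tested.

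**Figure D3:**
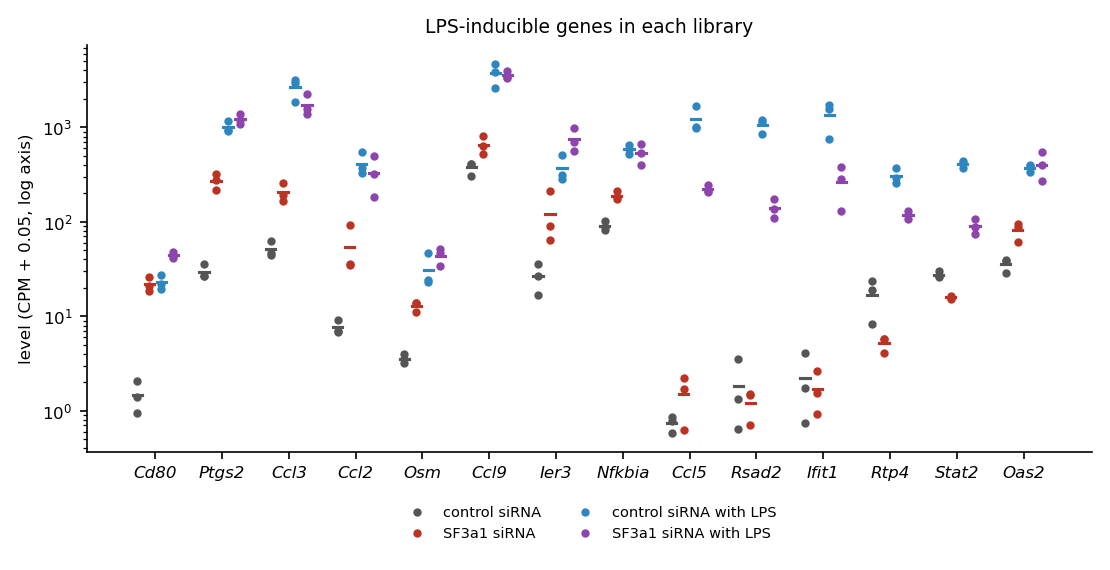
Level in each library of 14 LPS-inducible genes in the 4 groups, as CPM + 0.05 on a log axis; short lines are means of 3 libraries. Cd80, Ptgs2, Ccl3, Ccl2, Osm, Ccl9, Ier3 and Nfkbia were higher with SF3a1 siRNA than with control siRNA without LPS, and Rsad2 and Ifit1 were at 1.17 and 1.64 CPM on average, far under their levels with LPS.

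The effect of SF3a1 siRNA was also compared between cells with and without LPS (interaction term, edgeR). The difference passed the test in 520 of 14983 genes (3.47%), with the effect lower with LPS in 290 (1.94%) and higher in 230 (1.54%). It was lower with LPS in 30 of 65 interferon-stimulated genes, 16 of 36 cytokines, 15 of 56 NF-κB targets, 8 of 41 immediate early genes and 8 of 20 antigen presentation genes, and higher in none of these. Some members of these lists had few counts without LPS and were tested because of their level with LPS. Their counts therefore cannot be set against the shares of all genes. It was higher with LPS in 15 of 60 replication genes and lower in none, and among 38 p53 targets higher in 5 and lower in 6.

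Genes that carry the TLR signal showed no common direction. Of 68 tested, 12 were called higher and 11 lower (13.7% and 20.1% of all genes were), with a median log2 fold change of 0.08; the 11 became 5 without control siRNA replicate 1 or SF3a1 siRNA replicate 3, and 6 without replicate 2 of either. Ticam2, the adaptor that takes TLR4 to the interferon branch, fell from 17.7, 17.5 and 18.5 CPM to 6.34, 7.52 and 6.92 CPM (log2 fold change -1.37, SE 0.19, adjusted p = 0.00024). Fadd fell from 22.01, 23.8 and 20.1 CPM to 10.5, 10.3 and 7.44 CPM. Ikbkg, the regulatory subunit of the IKK complex, rose from 62.3, 79.5 and 64.7 CPM to 138, 111 and 132 CPM, and Map2k3, the kinase above p38, from 283, 399 and 358 CPM to 730.4, 701 and 695 CPM. Cd14, the co-receptor for LPS, was at 607, 603 and 419 CPM with control siRNA and 963, 613 and 710.1 CPM with SF3a1 siRNA and was not called (adjusted p = 0.164), but was called higher with the replicate block (adjusted p = 0.0141). Tlr4 itself was not called (-0.17, adjusted p = 0.742).

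Targets of ATF4, the transcription factor of the amino acid stress response, were mostly lower. Of 43 tested, 30 were called lower and 4 higher with a median log2 fold change of -0.64 (20.1% of all genes tested were lower and 13.7% higher). LPS raised 18 and lowered 2 (13.8% and 18.3% of all genes). Shmt2, which supplies one-carbon units, fell from 747, 649.8 and 591 CPM to 273, 193 and 175 CPM (log2 fold change -1.63, SE 0.19, adjusted p = 0.000106). The amino acid transporter Slc7a5 fell from 246, 308 and 251 CPM to 114, 105 and 95.00 CPM, and Psat1, an enzyme of serine synthesis, from 471, 553 and 546 CPM to 288, 311 and 262 CPM. Cars, a tRNA synthetase, fell from 116, 152 and 165 CPM to 50.7, 35.8 and 41.8 CPM and Pycr1, of proline synthesis, from 9.08, 6.70 and 8.73 CPM to 1.64, 1.67 and 0.893 CPM. The 4 that rose were Sesn2, which is on the p53 list too, Ddit4 (1.85), Ddit3 (1.37) and Ppp1r15a (0.98). Ddit3 and Ppp1r15a encode the stress factor CHOP and the phosphatase subunit GADD34.

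Other metabolic groups moved less. In the unfolded protein response 5 of 33 were lower and 2 higher. With the replicate number entered as a block 11 were lower (26.3% of all genes were in that fit), and 3 without control siRNA replicate 1 or 2 or SF3a1 siRNA replicate 3. Sdf2l1 fell from 213, 204 and 173 CPM to 51.7, 50.9 and 46.7 CPM, while Hspa5, the main chaperone of the endoplasmic reticulum, was at 1613, 1615 and 1388 and 1798, 1502 and 1448 CPM and was not called. Of 26 sterol synthesis genes 6 were lower and none higher (13 lower with the block, 3 without control siRNA replicate 1), among them Mvk (-1.21) and Fdps (-0.96). Of 22 genes of fatty acid synthesis and LXR targets 6 were lower and none higher, with Scd1 (-1.55) and Fads1 (-0.88) among them. Of 76 subunits of oxidative phosphorylation 8 were lower (15 with the block, between 2 and 4 without control siRNA replicate 2 or 3 or SF3a1 siRNA replicate 1 or 3) and none higher, and Ndufs1 of complex I fell from 175, 195 and 203 CPM to 82.9, 70.6 and 85.6 CPM. Glycolysis and hypoxia genes divided, 9 higher and 7 lower of 35. The 9 became 5 without SF3a1 siRNA replicate 3, and the 7 became 4 and 3 without control siRNA replicates 2 and 3. Pkm, pyruvate kinase, was at 4658, 4742 and 4420.5 CPM with control siRNA and 5111, 5706 and 4727 CPM with SF3a1 siRNA and was not called. The glucose transporter Slc2a1 rose by 0.72 and Pdk1 fell by 1.14 on the log2 scale. The shares called lower stood near or below the background of 20.1% for the unfolded protein response, oxidative phosphorylation and glycolysis lists and above it for the sterol and fatty acid lists. The share called higher was 25.7% for glycolysis and hypoxia genes and 6.06% for the unfolded protein response, beside 13.7% of all genes, and 0 in the other 3 lists.

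Many lysosomal genes were higher. Of 69 tested, 30 were called higher (13.7% of all genes were) and 3 lower, with a median log2 fold change of 0.38. The proteases cathepsin B and cathepsin D rose from 1944, 1537 and 1671 to 3597, 3337 and 3295 CPM for Ctsb and from 1263, 1029 and 1033 to 2468, 2181 and 1979 CPM for Ctsd. Atp6v1a, a subunit of the proton pump, rose from 409, 306 and 341 CPM to 1216, 816 and 1096 CPM (1.57, adjusted p = 0.00079), whereas the Atp6v1c1 subunit fell (-1.11, adjusted p = 0.000571). Mitf, a transcription factor of lysosome genes, rose from 98.1, 98.6 and 103 CPM to 284, 249 and 259 CPM, and the autophagy receptor Sqstm1 from 419, 365 and 354 CPM to 998, 867 and 981 CPM. With LPS 11 were higher and 16 lower, shares of 15.9% and 23.2% beside 13.8% and 18.3% of all genes. Of 32 NRF2 targets and genes of iron handling, 8 were higher and 1 lower (25% higher beside 13.7% of all genes; with the block 15 were higher, beside 20.7%). Among them were Hmox1, heme oxygenase, at 107, 138 and 121 CPM and 307, 364 and 372 CPM, and Ephx1, an epoxide hydrolase, at 10.9, 8.49 and 11.6 CPM and 40.8, 44.9 and 60.03 CPM.

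Of 42 macrophage identity genes tested, 11 were higher (26.2%, beside 13.7% of all genes tested) and 2 lower (4.76%, beside 20.1%), with a median log2 fold change of 0.17. The receptor for macrophage growth factor, Csf1r, was at 3198, 2950.4 and 2658 CPM with control siRNA and 3615, 3199 and 3256 CPM with SF3a1 siRNA and was not called (adjusted p = 0.34). Lyz2, lysozyme, was at 4978, 6125 and 5186 CPM and 7134, 8387 and 7060.2 CPM (0.47, adjusted p = 0.0707), a call that was lost with library totals, without a filter, and without control siRNA replicate 3 or SF3a1 siRNA replicate 2 or 3 (adjusted p = 0.146, 0.142, 0.112, 0.195 and 0.108). Ccr1, a receptor for Ccl3, rose from 0.963, 0.491 and 1.11 CPM to 27.8, 7.08 and 16.7 CPM. Markers of other cell types were near 0. None of 13 lymphocyte genes passed the filter, and 1 each of 10 fibroblast, 10 neutrophil and mast cell, and 10 epithelial and endothelial genes did. Of these Vwf was called, at 0.321, 0.447 and 0.426 CPM and 1.02, 0.780 and 1.12 CPM, while Pdgfrb and S100a8 were not. The Vwf call was lost without a filter (adjusted p = 0.183), and Pdgfrb was called higher with the replicate block (adjusted p = 0.0557).

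RAW264.7 cells can form osteoclasts, the bone-resorbing relatives of macrophages, and most tested genes of that state were higher. Of 13 tested, 9 were called higher and none lower, with a median log2 fold change of 1.34 (13.7% of all genes tested were higher and 20.1% lower). LPS raised 2 and lowered 3, near its shares of 13.8% and 18.3% of all genes. Nfatc1, the main transcription factor of osteoclasts, rose from 648, 839.9 and 816 CPM to 2201, 1854 and 1926 CPM (1.38, SE 0.17, adjusted p = 0.000133). Tnfrsf11a, which encodes the receptor RANK, rose from 197, 201 and 176 CPM to 403, 361 and 398 CPM, and Tcirg1, a subunit of the proton pump, from 399.5, 282 and 273 CPM to 963, 681 and 770.4 CPM. Some others varied between replicates of the same group. Acp5, the acid phosphatase that marks osteoclasts, chosen after its values were seen, was at 117, 16.04 and 73.2 CPM with control siRNA and 745, 138 and 371 CPM with SF3a1 siRNA, so its highest control lay close to the lowest SF3a1 siRNA library. In each group its first library was highest and its second lowest.

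Genes that act on RNA changed in both directions, and several of the lists that follow stood near the shares of all genes tested, 13.7% higher and 20.1% lower. Of 30 SR proteins and splicing kinases 7 were higher (23.3%) and 10 lower (33.3%), and the 10 fell to between 4 and 6 when any 1 of the 6 libraries was left out. The kinase Srpk1, which loads SR proteins with phosphate, fell from 131, 132 and 123 CPM to 46.99, 48.7 and 56.02 CPM (-1.35, SE 0.14, adjusted p = 4.87e-05), and Rbm5 fell from 115, 90.7 and 102 CPM to 54.3, 41.1 and 45.7 CPM. Rbm39 rose from 203, 211 and 219 CPM to 310.4, 394 and 379 CPM, as did Son (0.63). Of 27 hnRNPs 3 were higher (11.1%) and 10 lower (37.0%), led by Hnrnph3 (20.5, 32.2 and 30.1 CPM against 7.58, 7.36 and 9.15 CPM) and Hnrnpm (-0.84). Of 19 factors of nonsense-mediated decay, which removes transcripts with premature stop codons, 2 were higher (10.5%) and 3 lower (15.8%), and Upf3b fell from 26.4, 34.9 and 33.8 CPM to 10.5, 8.64 and 8.03 CPM. Of 80 cytosolic ribosomal proteins 5 were higher (6.25%) and 1 lower (21 higher when blocked, where 20.7% of all genes were, 9 without SF3a1 siRNA replicate 1, and 3 without SF3a1 siRNA replicate 2 or 3 or control siRNA replicate 2), with Fau at 67.97, 64.7 and 72.1 and 130.1, 150.3 and 151 CPM. Among 18 heat shock genes 2 were higher and 4 lower, among 30 genes of the BCL-2 family and caspases 6 and 6 (3 higher without SF3a1 siRNA replicate 1), among 20 of antigen presentation 4 and 3 (7 higher when blocked, beside 20.7%), and among 14 hosts of small nucleolar RNAs 3 and 3. In these last 4 lists between 11.1% and 21.4% were higher and between 15% and 22.2% lower. Hsph1, a co-chaperone, rose (0.97), Diablo, a mitochondrial trigger of cell death, fell (-1.39), and Psmb9, a subunit of the immunoproteasome, fell (-1.02). Eif4a2, a host gene, rose from 85.4, 90.7 and 98.2 CPM to 174, 174 and 166 CPM.

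**Figure D4:**
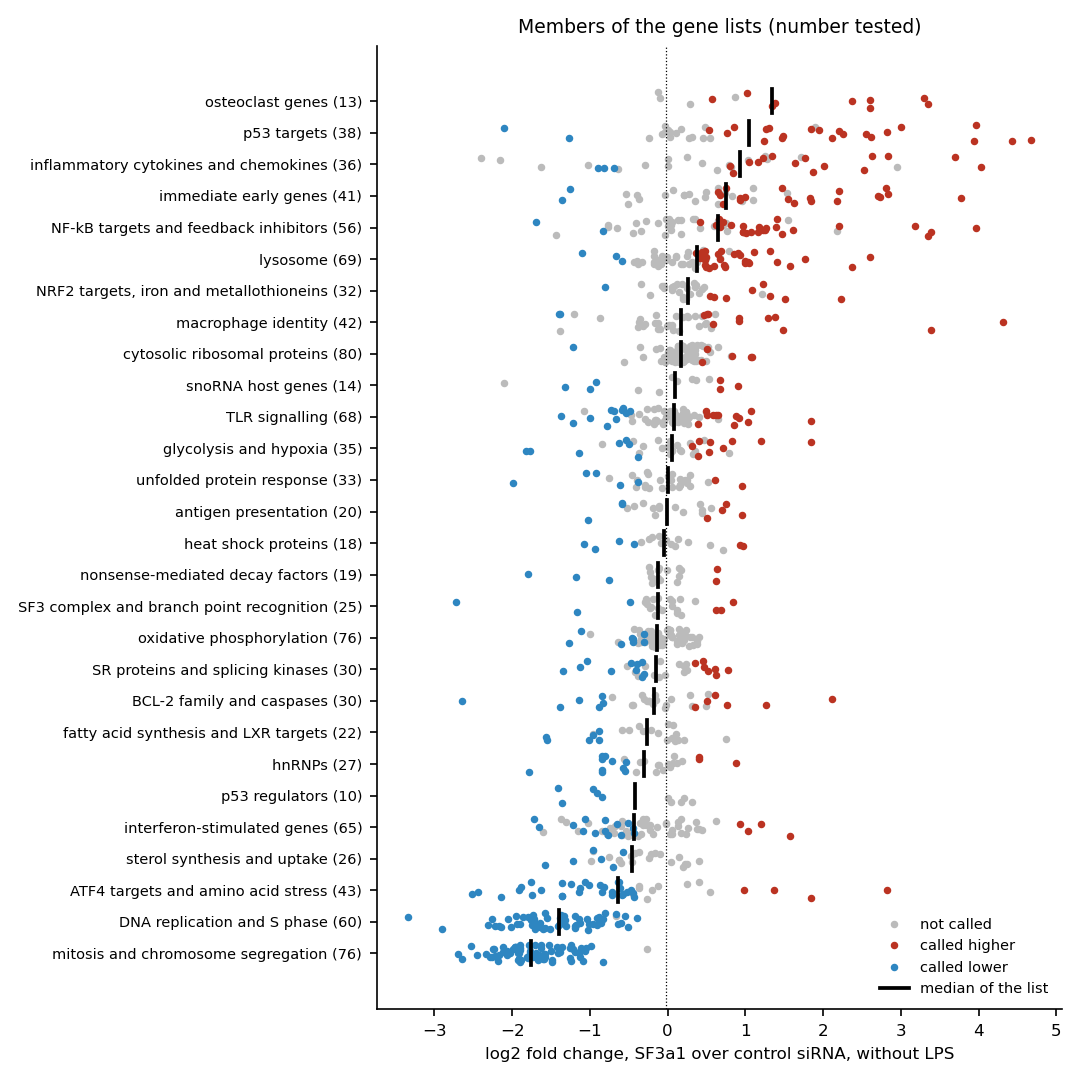
Log2 fold change with SF3a1 siRNA without LPS for each tested member of 28 gene lists, with the number tested in parentheses. Red and blue points were called higher and lower, black bars are list medians, which run from -1.76 for mitosis to 1.34 for osteoclast genes, and the dotted line is the median of all genes.

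The exon bin counts gave a second readout of the same libraries. An exon bin is a stretch of a gene that lies in a fixed set of its annotated transcripts, and its usage is given here as the percent of the gene's bin counts. Overlapping genes that the exon annotation joins were counted as 1 gene at this level. In such a unit a changed level of 1 member can appear as changed usage. Of 10609 genes tested, 653 (6.16%) had at least 1 bin whose usage differed at an adjusted p of 0.1 or less (edgeR diffSpliceDGE), with 961 bins called of 153624 (0.626%). On simulated data this test called unchanged genes well above its nominal rate and missed many changed bins, so the counts are approximate and a gene without a called bin may still have changed. Of the called bins 764 were used more and 197 less with SF3a1 siRNA. With a replicate block these were 1472 and 641 of 2113, and with 1 library left out between 429 and 619 were used more and between 81 and 149 less. With a replicate block 1217 genes had a called bin, and without control siRNA replicate 2 or 3 or SF3a1 siRNA replicate 2 or 3 the numbers were 382, 388, 392 and 432. Called bins were found in 5.91% of genes called higher, 7.64% of genes called lower and 4.87% of genes not called at the gene level. The kind of bin could be set for 613 of the called bins from rebuilt annotation. Of bins inside retained introns, annotated where 1 transcript keeps what others remove, 160 of 3747 were used more and 11 less. Of other bins inside an annotated intron, 282 of 10807 were used more and 20 less. Cassette exons went both ways, 28 used more and 35 less of 4014. Of bins inside no annotated intron, 47 were used more and 30 less of 96231.

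**Figure D5:**
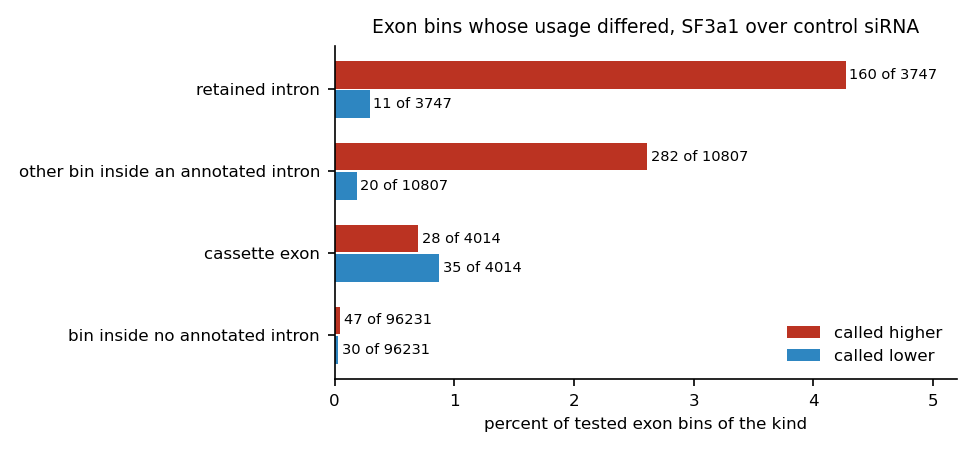
Percent of tested exon bins of each kind called higher (red) or lower (blue) in usage with SF3a1 siRNA without LPS, with the number called and tested beside each bar. Retained introns (160 used more, 11 less) and other intronic bins (282 and 20) gained usage, whereas cassette exons (28 and 35) did not lean to more use.

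The 6 genes called at both levels with the smallest bin p-values were Wdr61, Nfatc1, Tyw1, Arpc1b, Slc43a2 and Atad3a. In Wdr61, a subunit of the PAF complex, a retained intron bin of 181 bases (chr9:54724145-54724325) made up 0.0814, 0.131 and 0.0942% of the counts in control libraries and 2.14, 6.42 and 2.80% in SF3a1 siRNA libraries (adjusted p = 1.58e-12), while the gene fell (-1.27 at the gene level). In Tyw1, a tRNA modification enzyme, an intronic bin of 761 bases (chr5:130276989-130277749) went from 0.410, 0.915 and 0.211% to 6.63, 12.4 and 10.5%. In Arpc1b, a subunit of the actin-nucleating Arp2/3 complex, an intronic bin of 290 bases (chr5:145126933-145127222) went from 0.577, 0.306 and 0.482% to 3.34, 3.50 and 3.48%. In Slc43a2, an amino acid transporter, a bin at chr11:75531823-75532111 went from 0.137, 0.0841 and 0.0914% to 1.04, 1.40 and 1.63%. Bins of Nfatc1 (4.57, 4.90 and 5.27% against 0.572, 0.689 and 0.582%) and Atad3a (0.0961, 0.169 and 0.142% against 2.13, 2.31 and 2.38%) had no rebuilt position. The groups did not overlap in any of the 6, which also held for 928 of the 961 called bins (96.6%). Among all 153624 tested bins it held for 16544 (10.8%).

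Among the lists, bins of p53 and TLR genes stand beside their gene levels. These bins were chosen after their values were seen. Mdm4, a partner of Mdm2 that inhibits p53, was not called at the gene level (0.22, adjusted p = 0.512). Yet its exon bin of 68 bases at chr1:133004654-133004721 fell from 8.24, 5.55 and 4.18% to 0.264, 0.982 and 0.787% of the gene's counts (adjusted p = 0.00103). On the list of p53 regulators, which leaves out Mdm2, Mdm4 was the only gene with a called bin among 9 tested, where 6.16% of all genes had one. In Mdm2 a bin of 67 bases at chr10:117709718-117709784, on the minus strand, went from 3.83, 2.37 and 2.48% to 0.802, 0.414 and 0.333% while the gene as a whole rose. Of 59 TLR signaling genes tested 8 had a called bin, beside 6.16% of all genes. The shares were larger for hnRNPs, 7 of 20, and for SR proteins and splicing kinases, 9 of 29. In Tlr4 a bin of 1267 bases at chr4:66929018-66930284, which reaches the annotated end of the gene, rose from 0.185, 0.287 and 0.396% to 10.2, 8.86 and 11.3% (adjusted p = 4.5e-09). The paper described reads that joined Tlr4 to alternative exons far downstream when SF3a1 was inhibited. It could not obtain the predicted products by RT-PCR and knew of no earlier report of them. Whether this bin is one of those exons was not tested. In Ikbkb, the kinase that phosphorylates IκB, an intronic bin of 673 bases at chr8:22668011-22668683 rose from 0.643, 0.225 and 0.196% to 1.97, 2.05 and 2.13%, and the gene fell (-0.67, adjusted p = 0.00344). No bin was called in the 59 interferon-stimulated genes, the 34 cytokine genes or the 34 immediate early genes tested at this level (6.16% of all genes had one). Several of the interferon and cytokine genes had few counts without LPS, where a change in bin usage is hard to detect. The absence of a called bin says little about them.

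The number of introns differed between genes that rose and fell. Among 11261 protein-coding genes tested, those called lower had a median of 10 introns and those called higher or not called a median of 8. The share called lower was 16.1% of 1770 genes with 1 to 3 introns, 19.7% of 4346 with 4 to 9, 28.1% of 3354 with 10 to 19 and 29.8% of 1519 with 20 or more. Over the same steps the share called higher was 17.8%, 19.1%, 16.0% and 12.2%. Genes without introns, 272 in all, were called lower in 17.6% and higher in 9.93%. Genes called higher were longest in total, with a median of 26.3 kb against 21.9 kb for those called lower and 22.2 kb for those not called, and GC content was alike at 49.7%, 49.5% and 49.7%. The median level was 46.6 CPM for genes called higher, 31.9 CPM for those called lower and 33.7 CPM for those not called.

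Classes of RNA other than mRNA were counted as well. Of 88 small nucleolar RNA genes tested, which guide the modification of ribosomal RNA and mostly lie in introns of host genes, 23 were called higher (13.7% of all genes tested were) and 1 lower. Snord88a, for example, was at 0.160, 0.0894 and 0.0852 CPM with control siRNA and 1.31, 0.780 and 1.26 CPM with SF3a1 siRNA, and the one that fell was Snora7a (-0.77). In the polyA libraries used here these values count reads within the annotated small RNA, which may belong to the intron of the host gene. The low-count filter used all 12 libraries, and several small nucleolar RNAs called higher were near 0 with control siRNA. Genes such as Snord88a could pass that filter only through other groups. The 23 higher and 1 lower therefore cannot be set against the share of all genes. Of 131 processed transcripts 46 were lower and 11 higher, of 140 antisense genes 37 and 6, and of 107 lincRNAs 30 and 11, beside 20.1% lower and 13.7% higher of all genes tested. Of 2728 processed pseudogenes 255 were lower and 61 higher, and their reads may be shared with the parent genes. The strand setting of the counting is not given in the sources used here, so antisense genes cannot be told apart from their partners.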

How the data were processed

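RAW264.7 cells were nucleofected with control or SF3a1 siRNA and, after 24 h, left without LPS or given LPS at 20 ng/ml for 4 h, 3 samples a group. Per the labels and the study's methods, the authors aligned Ion Proton reads of polyA RNA to mm10 with GSNAP, and counted reads per gene with HTSeq and per exon bin with dexseq_count; the strand setting is not given in the sources used here. The deposited values were raw counts, used as deposited. Rows that name no gene were left out and are given as the share of reads outside genes.

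Genes passing filterByExpr were tested with edgeR 4.0.16 in R 4.3.3 (TMM scaling, quasi-likelihood test, 1 mean per group over 12 libraries, Benjamini-Hochberg adjustment), and called at an adjusted p of 0.1 or less. CPM were counts scaled to 1000000 by the TMM-scaled totals of tested genes. Exon bins were tested with diffSpliceDGE on 11 libraries; the exon counts of the third control siRNA library with LPS were not used here. That test pools the spread over the bins of a gene, and on simulated data it called more unchanged genes than its nominal rate, so single bins are given with their values in each library. Bin positions were rebuilt from GENCODE vM21 and set for 269697 of 354841 bins. Intron numbers and lengths are from the same annotation, which may differ from the authors'. Promoter windows are from RefSeq (GRCm38.p6).

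Reads on genes ranged from 12746019 to 40840082 per library without LPS, and floors from 3 counts cover counting error only. The members and gene lists were chosen with earlier results of these data known. Named genes were the SF3 subunits, the 12 largest rises and falls (called, at least 10 CPM on average, groups not overlapping), up to 5 called members with the smallest adjusted p and the 2 with the highest level in each list, the 8 with the largest LPS rise in 4 lists, and the 6 genes with the smallest bin adjusted p called at both levels. Ckap2, Ddb2, Birc2, Tnf, Il18, Tnfsf9, Cxcl16, Atf3, Klf4, Tlr4, Ddit3, Ppp1r15a, Acp5, Mdm4, Ikbkb, Snord88a and Snora7a fell outside this rule and were chosen after their values were seen.

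Replicate numbers come from the labels. Deviations of same-numbered libraries from their group means correlated at 0.143 to 0.600 over 18 pairs, each above 0.1, and the numbers were taken to pair the samples. Pairs with different numbers ranged from -0.523 to 0.345. Libraries numbered 2 correlated with those numbered 3 at 0.0401 to 0.345, some above a same-numbered pair, so replicate 1 stood apart more clearly than 2 and 3 did from each other. Alternatives were RLE and library-total scaling, 2 other filters, DESeq2 1.42.0, limma-voom (limma 3.58.1), the 6 libraries alone, the replicate block, each library left out, a test against a fold change of 1.5, and a threshold of 0.05. The scripts were tested on simulated data.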

Additional observations from a re-analysis of the deposited data

Results flagged for a closer look

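The effect of SF3a1 siRNA with LPS differed from that without LPS in 34 of the 241 named genes by a test of the difference itself (interaction term, edgeR quasi-likelihood test with Benjamini-Hochberg adjustment over all genes). Of all 14983 genes tested 520 differed (3.47%). Many named genes were chosen by their change without LPS or their LPS rise, values that enter this test. Their count therefore cannot be set against that share. Without LPS 15 of 36 cytokines were higher and 3 lower with SF3a1 siRNA (median log2 fold change 0.94), and with LPS 1 was higher and 21 lower (median -1.21). Of 65 interferon-stimulated genes 4 were higher and 14 lower without LPS (median -0.43), and none was higher and 61 lower with LPS (median -1.94). Of all 14983 genes tested, 2058 were higher (13.7%) and 3011 lower (20.1%) without LPS, and 2755 higher and 3063 lower with LPS.

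Adjusted p-values of the named genes ran from 0.000397 for Ptgs2 to 0.0998 for Tk1 (edgeR). The log2 effect with LPS minus that without LPS was -2.90 for Ptgs2, -3.01 for Cd80 (an effect of 3.97 without LPS and 0.95 with LPS), -2.59 for Acod1, -1.64 for Bcl2l1, -1.06 for Cd44, -1.13 for Ehd1 and -1.21 for Nfkbia. Among cytokines it was -3.15 for Ccl2, -3.07 for Ccl22, -2.63 for Ccl3, -3.51 for Ccl5, -4.12 for Ccl7, -3.62 for Cxcl2, -3.31 for Il1b, -3.61 for Lif and -1.38 for Osm, several of them with few counts without LPS. Among immediate early genes the difference was -1.64 for Dusp2, -1.90 for Fosl1 and -2.30 for Myc. Among interferon-stimulated and antigen presentation genes it was -3.43 for Gbp3, -2.86 for Ifit3b, -2.81 for Slfn5, -1.40 for Stat2, -1.35 for Psmb9, -1.78 for Tap2 and -1.37 for Tapbp. The osteoclast gene Mmp9 had -3.48, and the p53 targets Cdkn1a and Mdm2 had -1.11 and -0.97. For 5 genes that fell without LPS the fall was smaller with LPS, by 1.22 for Chek1, 1.06 for Ticam2, 1.28 for Tcf19, 1.37 for Tk1 and 1.28 for Wdhd1.

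Reads outside annotated genes, which enter no comparison, were 27.2%, 21.6% and 20.8% of all reads (on genes, outside genes and ambiguous) with SF3a1 siRNA, above the 18.2%, 19.6% and 17.8% of the control siRNA libraries. Their part in the results was not tested.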

How the results depend on the processing

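Sf3a1 stayed lower under each alternative run, with a log2 fold change between -2.81 and -2.55 when 1 library was left out. The 5069 called genes ranged from 3881 to 4810, the 2058 higher from 1547 to 2470 and the 3011 lower from 2077 to 2621 in those fits. Without the first control siRNA library the share of called genes that were higher went from 40.6% to 51.4%, and under RLE scaling, DESeq2 and library totals it was 47.2%, 48.1% and 33.3%; the median log2 fold change of all genes was -0.02, and stayed between -0.10 and 0.07 over the alternatives. With the replicate block 7053 genes were called, 3105 higher and 3948 lower, and the block changed no other count of called genes by over 1.5 times apart from the lists given above and the 1217 genes with a called exon bin. Among named genes the block took no call away and 12 gained one; those that the text names are given there. The test against a fold change of 1.5 called 1903 genes, 632 higher and 1271 lower; it asks for a larger change by construction. In that test 7 cytokine genes, 14 NF-κB targets, 12 immediate early genes and 11 lysosomal genes were higher, and 15 ATF4 targets and 2 interferon-stimulated genes were lower. Members called higher numbered 0 for SR proteins, 3 for TLR signaling, 5 for macrophage identity, 4 for NRF2 targets, 2 each for interferon-stimulated genes, ATF4 targets and the BCL-2 family, and 1 each for glycolysis, ribosomal proteins and antigen presentation. Members called lower numbered 3 each for SR proteins, hnRNPs, p53 regulators, glycolysis and the BCL-2 family, 2 each for TLR signaling, sterol synthesis and the unfolded protein response, and 1 each for oxidative phosphorylation and heat shock genes. The p53 target, replication, mitosis and osteoclast counts moved by less than 1.5 times. Without a filter on low counts 12 sterol genes and 6 SR genes were lower and 4 SR genes higher. Antigen presentation genes called higher numbered 7 under RLE scaling and DESeq2 and 8 with the 6 libraries alone, and ribosomal protein genes called higher numbered 8, 9 and 8 there and 3 with library totals, under which 8 genes of the unfolded protein response were lower. Genes with a called exon bin ranged from 382 to 517 when 1 library was left out. Of 183 named genes called, 124 were called under each alternative and none of the 241 named genes turned its sign past the threshold. Depth limits low genes most, since a group of 3 control siRNA libraries with 0 counts allows 0.0362 CPM.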

Other observations

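Among genes on none of the lists, several at a high level were raised. Spp1, which encodes the secreted matrix protein osteopontin, was at 1059, 2562 and 1640.4 CPM with control siRNA and 2996, 4729 and 3582 CPM with SF3a1 siRNA (log2 fold change 1.10). Lmna, which encodes lamin A and C of the nuclear envelope, was at 2126, 1922 and 1709 CPM and 4096, 3164 and 3170.1 CPM (0.86), and Ank, a transporter of pyrophosphate and ATP, at 1589.9, 1896 and 1774 CPM and 6960.0, 5766 and 6313 CPM (1.86). The mitochondrial transcript mt-Nd1 was at 1067, 1313 and 1648 CPM and 2222, 2571 and 1879 CPM (0.73). Trim72, a membrane repair gene of muscle, had 0 counts in the 3 control siRNA libraries and was at 1.75, 3.46 and 4.24 CPM with SF3a1 siRNA. These genes were chosen after their values were seen.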
